A study of Drosophila melanogaster with 3 samples.

Results

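The 35 genes described here encode basic helix-loop-helix (bHLH) proteins or their helix-loop-helix relatives and were taken, by symbol, from the 13945 protein-coding genes of the annotation. All 35 were found, dys under its annotation symbol dysf. The data are ChIP-seq peak lists of CoRest, the scaffold of a corepressor complex, from whole Drosophila melanogaster embryos, male and female pooled, collected at 0 to 24 hours. The embryos came from a transgenic line that stably expresses CoRest with GFP at its C terminus, and an antibody against GFP was used. All 3 biological replicates carry that transgene and form 1 group. Whole embryos mix cells that use a gene with cells that do not, so a peak here cannot be placed in a cell type.

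Many bHLH proteins, though not all, bind DNA as dimers, each partner reading one side of a short sequence called the E-box, with the letters CANNTG. In development, tissue-specific members such as Atonal or Twist pair with the broadly present E protein Daughterless, and Extramacrochaetae, which lacks the basic region, holds such proteins off DNA. Further branches carry a PAS domain (hypoxia, midline, trachea and circadian clock), a leucine zipper (the Myc network, lipid and lysosome regulators) or an Orange domain (repressors of the Hey type).

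By general knowledge of their expression, which was not measured here, 21 members were classed as tissue-specific and 14 as broadly expressed. A member was called promoter-bound when a peak summit lay within 500 bp of one of its annotated start sites. The main list was the authors' 8721 peaks thresholded on reproducibility, and each replicate was described by its 8721 strongest peaks. Ranks order the deposited peak signal, with 1 as the strongest, in the pooled list of 30000 peaks unless a replicate is named. Since the members were chosen with earlier results of these data known, the comparisons are given as counts and replicate spreads with no p-value.

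Tissue-specific bHLH genes had fewer promoter peaks than broadly expressed ones. Of the 21 tissue-specific genes, 5 were promoter-bound (23.8%), and the replicates gave 5, 4 and 3 genes (19.0% ± 4.76, SD, n = 3). Of the 14 broadly expressed genes, 9 were bound (64.3%), and the replicates gave 10, 11 and 8 genes (69.0% ± 10.9, SD, n = 3). Over all protein-coding genes the share was 35.4% (replicates 35.5% ± 1.63, SD, n = 3). The 14 bound members together made 40% of the 35 (replicates 39.0% ± 6.6, SD, n = 3), close to that background. Without replicate 1, keeping thresholded peaks also among the 8721 strongest of both other replicates, the member share was 25.7%, from 6332 peaks. The share of all genes was not counted on those fewer peaks, so the 35.4% is no background for it. The difference between tissue-specific and broadly expressed genes was -40.5 percentage points in the thresholded list and -47.6, -59.5 and -42.9 points in replicates 1, 2 and 3. In each replicate, the tissue-specific share lay below that of all genes and the broadly expressed share above it.

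**Figure D1:**
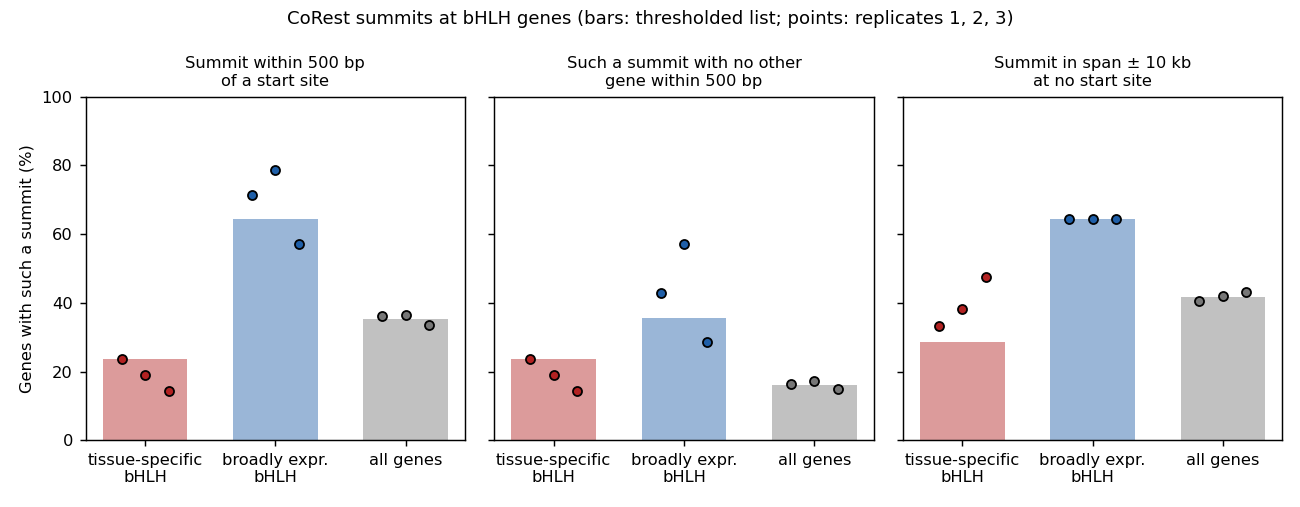
Share of genes (%, y axis) with a CoRest summit by 3 definitions, for tissue-specific bHLH genes (n = 21), broadly expressed bHLH genes (n = 14) and all protein-coding genes (n = 13945). Bars give the thresholded list and points the 3 replicates. In the left panel the tissue-specific bar stands at 23.8% and the broadly expressed bar at 64.3%, while in the middle panel, where the peak lies near no other gene, they stand at 23.8% and 35.7%.

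The size of that difference depended on which promoters were compared. None of the 5 bound tissue-specific genes had a promoter summit that also lay within 500 bp of another gene's start site. Of the 9 bound broadly expressed genes, 4 (Max, SREBP, crp and tai) shared every promoter summit with a neighbour. A promoter summit with no other protein-coding gene within 500 bp was present at 5 of 21 tissue-specific genes (23.8%) and at 5 of 14 broadly expressed genes (35.7%). Over all genes it was 16.2%. In the replicates such shares were 19.0% ± 4.76 for tissue-specific and 42.9% ± 14.3 for broadly expressed genes (SD, n = 3), and the closest pair of values came from replicate 3, with 14.3% and 28.6%.

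Promoter base composition moved with the classes too. The lowest GC content of the 300 bases upstream, over a gene's start sites, had a median of 44.7% for tissue-specific genes, 35.3% for broadly expressed genes and 36.0% for all genes. Among genes under 40% GC, 3 of 5 tissue-specific and 8 of 11 broadly expressed genes were bound, against 42.1% of all such genes. At 40% GC or more, 2 of 16 tissue-specific and 1 of 3 broadly expressed genes were bound, against 21.9% of all such genes. In the thresholded list the difference between the classes was thus -12.7 and -20.8 percentage points within these ranges. The replicates did not keep to these sizes. Under 40% GC, replicates 1, 2 and 3 gave -21.8, -40 and -32.7 points, and at 40% or more they gave -20.8, 6.25 and 6.25 points, so the direction turned in replicates 2 and 3, where none of the 3 broadly expressed genes was bound. The part of GC content and of neighbouring genes in the pooled difference was not tested further.

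Within ranges of gene length and of start site number, the tissue-specific share was the lower one in every replicate, by amounts that varied. Among genes with 1 start site, 1 of 13 tissue-specific (7.69%) and 6 of 9 broadly expressed genes (66.7%) were bound, against 29.0% of all such genes, and the replicates differed by -59.0, -59.0 and -36.8 percentage points. Among genes with more, the counts were 4 of 8 and 3 of 5, against 52.9% of all. The replicates had wider gaps, of -30, -62.5 and -55.0 points.

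For genes of at most 5 kb the counts were 2 of 13 and 3 of 4, against 31.3% of all, with replicate differences of -59.6, -59.6 and -9.62 points. For genes of 5 to 20 kb they were 0 of 4 and 2 of 4, against 48.3% of all, and each replicate gave the same counts. Over 20 kb the direction turned in the thresholded list, with 3 of 4 tissue-specific (75.0%) and 4 of 6 broadly expressed genes (66.7%) bound, against 45.7% of all. In the replicates these long genes gave 3, 2 and 1 tissue-specific and 5, 6 and 5 broadly expressed genes, so the tissue-specific share was the lower one in all 3.

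The following stretches show bases at a few member summits and are not a sample of all of them. They lie around the strongest promoter summit of the 3 highest-ranked tissue-specific and 2 highest-ranked broadly expressed genes, on the strand of the gene, free of exon bases. Of these, the ss summit ranked only 5035, against a median of 4250 over all member summits. The last stretch is at the strongest summit inside any member, chosen after its rank was seen. Sequences are from the RefSeq Release 6 assembly, in dm6 coordinates, and capitals mark E-box letters (CANNTG), searched on both strands.
dys, chr3R:26099022-26099141, minus strand: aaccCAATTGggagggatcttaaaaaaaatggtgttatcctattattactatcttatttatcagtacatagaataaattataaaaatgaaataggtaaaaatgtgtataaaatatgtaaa
Oli, chr2L:17588784-17588903, plus strand: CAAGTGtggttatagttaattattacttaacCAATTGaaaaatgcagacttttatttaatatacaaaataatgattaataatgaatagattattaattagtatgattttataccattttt
ss, chr3R:16403805-16403924, minus strand: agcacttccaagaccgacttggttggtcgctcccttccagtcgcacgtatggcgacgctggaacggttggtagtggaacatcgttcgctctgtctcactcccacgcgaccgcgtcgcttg
tai, chr2L:9166587-9166706, plus strand: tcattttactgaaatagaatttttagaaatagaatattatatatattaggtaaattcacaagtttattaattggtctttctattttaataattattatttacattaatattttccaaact
Max, chr3L:19264240-19264326, minus strand: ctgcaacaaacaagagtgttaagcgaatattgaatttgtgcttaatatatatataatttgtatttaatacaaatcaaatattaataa
gce, chrX:15298421-15298540, plus strand: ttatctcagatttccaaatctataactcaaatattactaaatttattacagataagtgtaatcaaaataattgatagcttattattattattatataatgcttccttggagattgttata

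Over all 16 member promoter summits, the median GC content within 100 bp was 35.3%, against 34.3% over all 4144 promoter summits. E-box letters lay within 100 bp of 9 of the 16 (56.2%), against 57.6% of all promoter summits. Member promoter summits were thus close to other promoter summits in both. Among the printed stretches, GC content ran between 15.8% (tai) and 60% (ss). The Max stretch was trimmed to 87 bp to keep exon bases out.

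Among the tissue-specific genes, dys had the strongest promoter peak. It encodes Dysfusion, a bHLH-PAS factor of tracheal fusion cells. Its summit lay 371 bp upstream of a start site (3R 26098774 to 26099225) at pooled rank 923 and at ranks 737, 1687 and 1160 in replicates 1, 2 and 3. Oli, the Olig family gene of motor neurons, followed with 2 promoter summits. The stronger lay 340 bp upstream of the nearest start site (2L 17588666 to 17588909, pooled rank 1753, replicate ranks 1311, 2671 and 2280). The weaker lay in a 5′ untranslated region (rank 5764). Both genes' stronger summits were among the 8721 strongest peaks of all 3 replicates.

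The other 3 bound tissue-specific genes had weaker or less repeatable peaks. The promoter summit of Fer3 lay 394 bp upstream (3R 11694483 to 11694926, pooled rank 8265), with close ranks of 8315, 8241 and 6900 in the replicates. That of twi, the mesoderm determinant, lay 97 bp downstream of a start site in a 5′ untranslated region (2R 23045983 to 23046426, pooled rank 7625). Its replicate ranks were 6207, 8343 and 10106, the last outside the 8721 strongest of replicate 3. The ss gene, a regulator of antennal and limb identity, had a summit 175 bp upstream (3R 16403643 to 16404086, pooled rank 5035) that was found in replicate 1 only, at rank 4866.

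Among the broadly expressed genes, the strongest promoter peaks belonged to tai, Max and da, and their ranks changed little between replicates. The summit of tai, a coactivator of the ecdysone receptor, lay 131 bp upstream (2L 9166442 to 9166770, pooled rank 1028, replicate ranks 885, 1071 and 1307), and CG9586 starts within 500 bp of it. That of Max, the dimer partner of Myc, lay 116 bp upstream (3L 19264162 to 19264454, rank 1507, replicate ranks 1505, 1832 and 1529), with the starts of CG42374 and Mettl5 in the same window. The summit of da, which encodes the E protein, lay 112 bp upstream with no other gene's start near it (rank 2295, replicate ranks 2688, 1930 and 2277).

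The hypoxia factor gene sima and its partner tgo, the ARNT gene, were also bound at start sites of their own. The sima summit lay 79 bp upstream (3R 30058010 to 30058453, rank 4642, replicate ranks 4438, 5421 and 4352). The tgo summit lay 12 bp upstream (3R 9019812 to 9020255, rank 4142) and was found in replicates 1 and 2, at ranks 3485 and 3941, but not in replicate 3. The emc gene, which encodes the inhibitor of the family, had a summit 2 bp upstream of its start site (3L 749176 to 749619, rank 7643), with replicate ranks of 7028, 9983 and 11689.

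Mnt, an antagonist of Myc, had promoter summits at 2 start sites. The first lay 43 bp downstream of one start site, in a window shared with Parg (X 3671622 to 3672065, rank 5953, replicate ranks 7467, 5271 and 5132). The second lay 313 bp upstream of an internal start site (X 3687700 to 3688143, rank 4827, replicate ranks 6372, 3354 and 4875). The crp gene, the homologue of AP-4, had a summit 137 bp upstream (2L 16287772 to 16287925, rank 3833) that also lay near the start of pkaap and ranked 2380, 7271 and 7389 in the replicates. SREBP, the lipid synthesis regulator, had its summit 245 bp upstream, nearer to the start sites of CG42637 and Gyc76C (3L 19793468 to 19793911, rank 6008). Within 100 bp of that summit, the replicates had peaks at ranks 5277, 18917 and 6109. Replicate 2 also had a promoter summit farther from it, at rank 6404, so SREBP counted as promoter-bound in all 3 replicates.

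**Figure D2:**
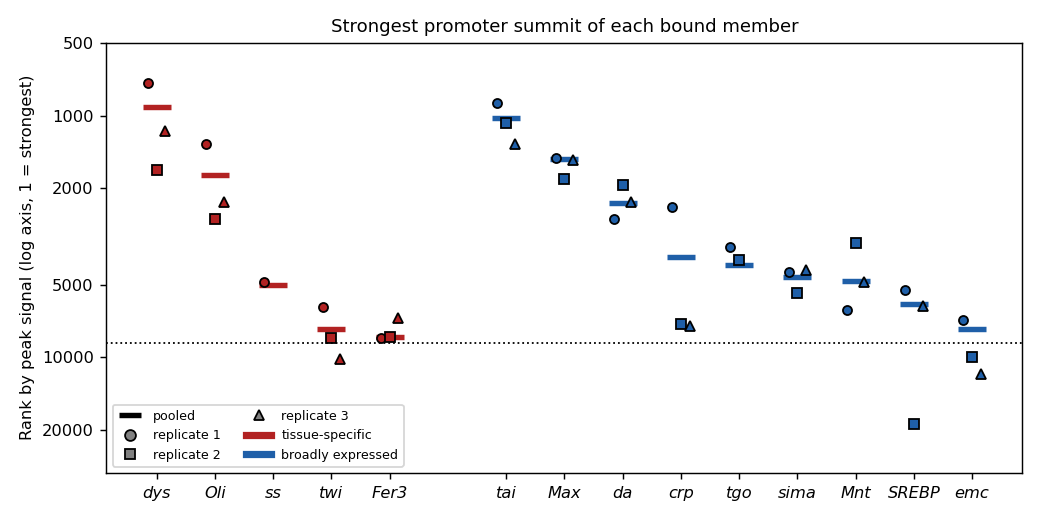
Rank of the strongest promoter summit of each of the 14 bound bHLH genes (y axis, logarithmic, strongest at the top), tissue-specific genes on the left. Horizontal marks give the pooled list and symbols the 3 replicates, where a summit lay within 100 bp, and the dotted line marks rank 8721. Max keeps within 1505 to 1832, while emc, twi and SREBP cross the dotted line and ss has a point in replicate 1 alone. Another promoter summit of SREBP in replicate 2, at rank 6404, is not drawn.

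Just outside the 500 bp limit lay the strongest peak of any member gene. In gce, a juvenile hormone receptor gene, a summit 528 bp upstream of the nearest start site lay in an intron (X 15298236 to 15298723) at pooled rank 81, with replicate ranks of 141, 63 and 49. A second gce summit lay 510 bp upstream (rank 2070), and SREBP had one 627 bp downstream (rank 719, replicate ranks 830, 576 and 669). Just inside the limit, the farthest summits were those of Fer3 at 394 bp and dys at 371 bp. By the rule gce was not bound in the thresholded list, yet each of the 3 replicates placed a summit within 500 bp of one of its start sites, at ranks 2916, 1278 and 6749.

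The other unbound broadly expressed genes were cyc, Myc, Mitf and cwo. The circadian gene cyc had promoter peaks in replicates 1 and 2 only, at ranks 9095 and 8169. Mitf, a lysosome regulator gene on chromosome 4, had a promoter peak at rank 3718 in replicate 2, at rank 17232 in replicate 1 and none in replicate 3 or the pooled list. Chromosome 4 held 45, 42 and 27 of the 8721 strongest peaks in the 3 replicates. Promoter peaks of Myc ranked 12858, 9996 and 18057 in the replicates, and those of cwo, a clock repressor gene, 27537, 15799 and 20481, all outside the strongest 8721.

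Lowering the threshold added tissue-specific genes at the rate of all genes. In the whole pooled list, 21 of the 35 members (60%) had a promoter summit, against 51.8% of all genes. Of the genes not bound in the thresholded list, it added 4 of 16 tissue-specific (25%) and 3 of 5 broadly expressed genes, against 25.5% of all genes. The 7 added members were gce, Myc and cwo, and, among tissue-specific genes, Fer2 at rank 14183, Fer1 at 19638, HLH4C at 22229 and sim at 22919. No pooled promoter summit was present at ato, amos and cato, related genes of sensory organ precursors, at the neural gene tap or at the neuroendocrine gene dimm. The same held for HLH54F and Hand of visceral muscle and heart, the muscle gene nau and the salivary gland gene sage. It also held for HLH3B, for Clk, the activator of the circadian clock, and for Hey, a target of Notch signalling. Nor was one present at Mitf and cyc.

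Nearly every member had some CoRest summit in its wider surroundings, which is common. Within the gene span plus 10 kb on each side, 31 of 35 members had a thresholded summit (88.6%), against 78.7% of all genes. It was 18 of 21 tissue-specific (85.7%) and 13 of 14 broadly expressed genes (92.9%), and HLH4C, HLH3B, Clk and Mitf had none. In the pooled list all 35 had one, against 92.4% of all genes. The number of summits differed more than their presence, with a median of 2 for tissue-specific genes, 4 for broadly expressed genes and 2 for all genes.

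The windows differ in length, since tissue-specific members have a median length of 2710 bp and broadly expressed members one of 15500 bp. Per 10 kb of window, the median was 0.483 summits for tissue-specific genes, 1.59 for broadly expressed genes and 0.886 for all genes. In the replicates the medians were closer, at 0.749 ± 0.106 for tissue-specific and 1.16 ± 0.131 for broadly expressed genes (SD, n = 3). The difference per 10 kb was -1.11 in the thresholded list but -0.441, -0.636 and -0.167 in replicates 1, 2 and 3. Without replicate 1, 2 or 3 it was -0.308, -0.337 and -0.308. That setting keeps only thresholded peaks also among the strongest of both other replicates, so it leaves fewer peaks. Among genes with no head-to-head neighbour (an other-strand start site within 500 bp upstream), the replicate medians were close. They were 0.902 ± 0.0336 for tissue-specific and 0.96 ± 0.125 for broadly expressed genes (SD, n = 3). In replicate 3 their order turned, at 0.931 and 0.849. It also turned at 40% GC or more in replicates 2 and 3 and up to 5 kb in replicate 3. In the other ranges, and in all of the thresholded list, the tissue-specific median was lower. The difference in the share of genes with any summit, -7.14 percentage points, was -14.3 without replicate 1 and -21.4 without replicate 2.

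The 2 classes differed in where those summits lay. Of 49 summits around tissue-specific genes, 6 lay at a start site of the member, 25 at start sites of other genes only and 18 (36.7%) at no protein-coding start site. Of 76 around broadly expressed genes, these counts were 10, 22 and 44 (57.9%). Most of the 44 came from a few long genes, with 9 at Mnt, 8 at Myc, 7 each at crp and tai and 6 at gce. Broadly expressed members are also longer (median 15500 against 2710 bp), and the part of length in these counts was not tested. Over all thresholded summits, 52.5% lay at no protein-coding start site. In all these counts, overlapping peaks with summits of their own were counted separately. Such peaks lay around gce, Myc, tgo, SREBP and Max, and among tissue-specific genes around dys only. Of the summits at no start site, 7 lay inside a tissue-specific member and 34 inside a broadly expressed one. Summits over 2 kb from any protein-coding start site made 24.5% of the first set and 44.7% of the second, against 34.0% of all.

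At 10 tissue-specific genes every summit in the window lay at a start site of another gene, which held for 1 broadly expressed gene, cyc. That is 47.6% of the tissue-specific and 7.14% of the broadly expressed genes, and for all genes it was 19.6%. The replicates gave 8, 7 and 6 tissue-specific genes (33.3% ± 4.76, SD, n = 3) and 1, 0 and 2 broadly expressed genes (7.14% ± 7.14, SD, n = 3). The 10 were ato, amos, cato, tap, Fer1, Fer2, HLH54F, sage, dimm and Hand. The strongest of these summits lay 8204 bp upstream of amos, in the 5′ untranslated region of CG10413 (2L 18604913 to 18605363, rank 105, replicate ranks 109, 89 and 112). The summit near cyc lay at Deaf1 and Fibp (3L 19817759 to 19818219, rank 1008, found in replicates 1 and 3). The summit near ato, at CG9630, had rank 8390 and was found in replicate 1 only.

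**Figure D3:**
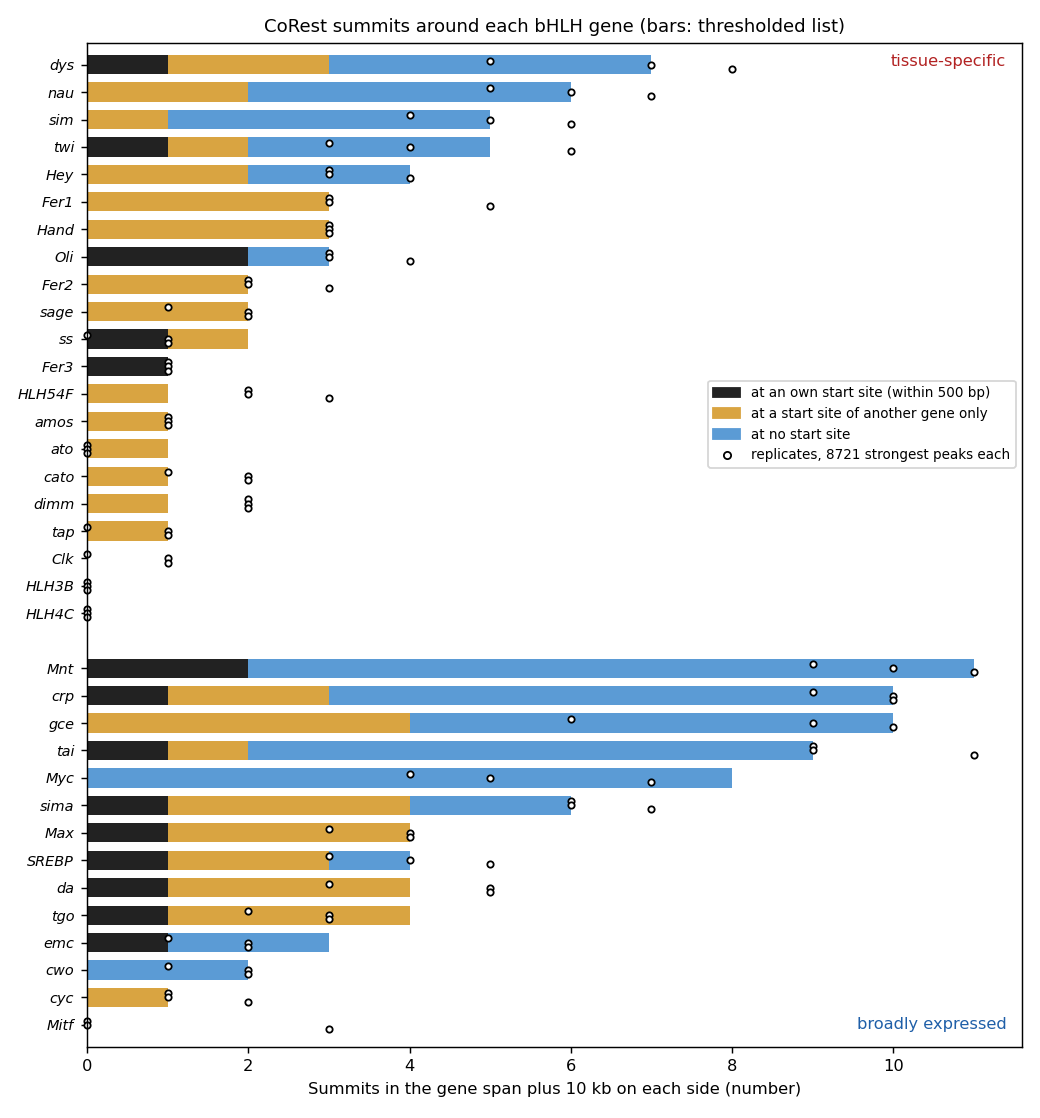
Number of thresholded CoRest summits in the span plus 10 kb of each bHLH gene (x axis), tissue-specific genes above and broadly expressed genes below. Black marks summits at an own start site, yellow those at another gene's start site only, blue those at no start site, and open points the counts in the 3 replicates. Yellow makes up the whole bar of 10 tissue-specific genes, and the longest bars are those of Mnt (11), crp and gce (10 each).

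A summit at no start site was present around 6 tissue-specific genes (28.6%) and 9 broadly expressed genes (64.3%), against 41.6% of all genes. These shares were not matched for gene length, which differs between the classes. The replicates gave 39.7% ± 7.27 for tissue-specific and 64.3% for broadly expressed genes in each replicate (n = 3), so the gap was narrowest in replicate 3, at 47.6% and 64.3%. The 6 were twi, Oli, nau, sim, dys and Hey.

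Of these, sim, the master gene of the CNS midline, had 4, with 3 in its introns. The strongest lay 4161 bp upstream of its nearest start (3R 13068046 to 13068391), at rank 1181 (replicate ranks 1378, 1265 and 1012). The next lay 1794 bp downstream of its nearest start (3R 13064044 to 13064551), at rank 1472 (replicate ranks 1398, 910 and 2060). Around nau, the MyoD homologue, 4 of 6 summits lay at no start site, among them one in an intron of nau (3R 23713962 to 23714195, rank 2501, replicate ranks 2323, 2160 and 3350) and a stronger one in an intron of the neighbour CG10365 (rank 1650). Around dys, 3 weak summits lay between 4931 and 7312 bp upstream of it (ranks 5673, 5314 and 5870). The annotated span of twi is 62952 bp long because 1 transcript starts far upstream, and 2 of its summits at no start site lay in that intron (ranks 6302 and 7512).

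The members with the most summits were Mnt, crp, gce, tai and Myc. Mnt carried 11 summits (replicates 9, 11 and 10), the strongest in an intron 6250 bp from a start site (X 3677808 to 3678287, rank 604, replicate ranks 685, 667 and 504). The crp gene had 10 (replicates 9, 10 and 10), led by an intronic summit 7850 bp into the gene (2L 16279677 to 16280104, rank 425, replicate ranks 426, 375 and 419). The gce gene also had 10 (replicates 6, 9 and 10), and tai had 9 (replicates 9, 11 and 9). Per 10 kb of window, the highest values among members were 2.42 for gce, 2.35 for nau, 2.26 for crp, 2.21 for Mnt and 2.08 for Myc. The replicates did not keep this order, with 1.45, 2.18 and 2.42 for gce and 1.04, 1.3 and 1.82 for Myc. In replicate 1, da had 1.99, above both. The values of nau, crp and Mnt were 1.8 or more in every replicate.

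Myc, the growth regulator, had no thresholded promoter summit, unlike Max and Mnt. It had 8 thresholded summits (replicates 4, 5 and 7) and none of them lay at a start site of any protein-coding gene. Of the 11 summits around Mnt, 9 lay at no start site. The strongest Myc summit was intronic, 8743 bp into the gene (X 3381776 to 3382039, rank 2042, replicate ranks 2500, 1957 and 1756), and another lay 9286 bp upstream (rank 2862). In cwo the strongest summit was also intronic, 5648 bp into the gene (3R 10393735 to 10394080, rank 1042, replicate ranks 1628, 752 and 770). In sima one lay deep in the gene, 6712 bp upstream of an internal start site (3R 30092675 to 30092978, rank 1161, replicate ranks 1446, 1062 and 1011). The emc gene had 3 thresholded summits but 19 in the pooled list.

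**Figure D4:**
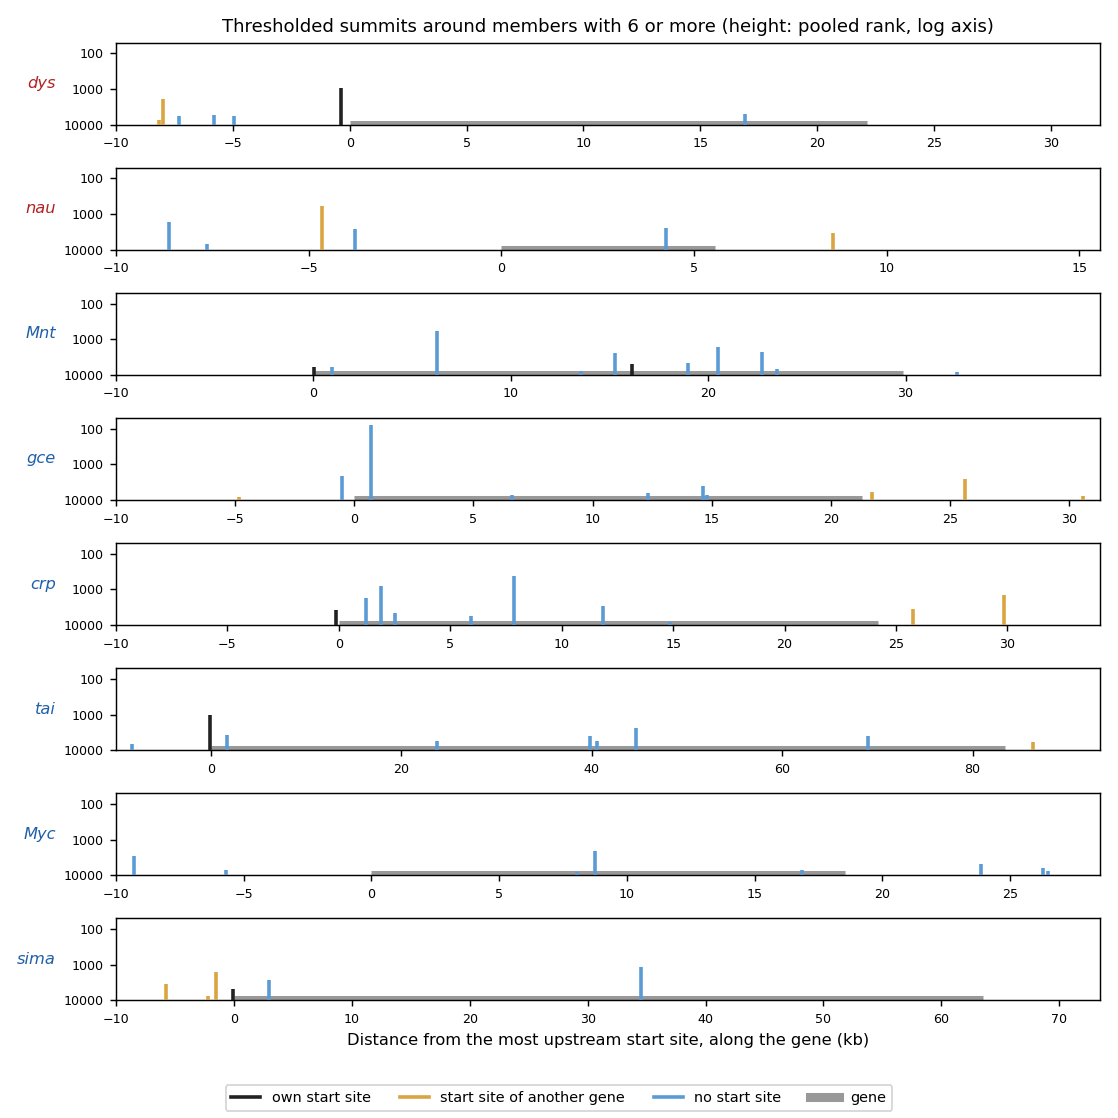
Thresholded summits around the 8 bHLH genes with 6 or more, by distance from the most upstream start site along the gene (x axis, kb, scaled to each gene). The height of a line gives its pooled rank on a logarithmic axis, colours tell own start sites, other genes' start sites and no start site, and grey bars the genes. Distance axes differ between panels. The tallest line of each of Mnt, gce, crp and Myc is blue and stands inside the gene, led by gce at rank 81.

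By branch of the family, promoter peaks were present at 1 of 8 neural and sensory genes (Oli) and at 2 of 8 genes of mesoderm and organs (twi and Fer3). They were present at 5 of 9 bHLH-PAS genes, counting the coactivator tai among these, and at 4 of 6 leucine zipper genes. Both da and emc had one, and neither Hey nor cwo did. The share of all protein-coding genes was 35.4%, and each branch holds 9 genes or fewer, so 1 gene moves its share widely. The counts in replicates 1, 2 and 3 were 1, 1 and 1 for the neural, 2, 2 and 1 for the mesoderm, 6, 6 and 4 for the PAS and 4, 5 and 4 for the zipper genes. The PAS branch holds both classes, and within it the 2 bound tissue-specific genes were ss and dys.

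E-box letters were as frequent at member peaks as at all peaks. E-box letters (CANNTG) occurred within 100 bp of 72 of the 125 member summits (57.6%), against 57.5% of all 8721 summits. It was 59.2% around tissue-specific and 56.6% around broadly expressed genes. The form CACGTG, read by Myc, Max and the clock factors, occurred at 0 of 125, against 1.72% of all summits, and CAGCTG at 9 (7.20%), against 7.40%. A count of 0 in 125 allows a share of up to 2.40%, which covers that of all summits.

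At the 16 member promoter summits, TATCGATA, the site of the core promoter factor DREF, occurred at 0, which allows up to 18.8%, against 9.19% of all promoter summits. CGATA, letters bound by the insulator protein BEAF-32, occurred outside TATCGATA at 5 (31.2%), against 38.1%, and TCAGTT or TCAGTC, the initiator letters, at 2 (12.5%), against 15.8%. All were searched on both strands, within 100 bp. Over all members, bound or not, TATCGATA was found in the 300 bases upstream of none of the 35, against 9.54% of all genes. Initiator letters with the A within 10 bp of a start site, on its strand, were present at 7 of 21 tissue-specific genes (33.3%) and at 1 of 14 broadly expressed genes (7.14%), against 14.4% of all genes. A match or its absence describes these letters only.

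Other bHLH genes, which are not among the 35, gave a share near that of all genes. Of 22, 8 had a promoter peak (36.4%; replicates 36.4% ± 4.55, SD, n = 3). They were E(spl)m3-HLH at rank 99, E(spl)m7-HLH at 368, E(spl)mdelta-HLH at 697, trh at 807, net at 1347, bigmax at 1348, Mondo at 3739 and h at 5693. The proneural genes ac, sc, l(1)sc and ase had none, and of these ase alone had a thresholded summit within 10 kb.

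Member peaks were found across replicates about as often as the whole list. Of the 125 member summits, 107 (85.6%) had a summit within 100 bp in each of the 3 replicate lists, against 88.0% of all thresholded summits. Their median pooled rank was 4250, against 4360 for all thresholded summits.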

How the data were processed

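The deposited files were peak lists on dm6: 1 per replicate, 1 pooled and 1 thresholded on reproducibility (IDR), the last derived from the others per the deposited file listings, which also name 1 control file. The 4 lists without that threshold hold 30000 peaks each. A peak caller, its thresholds and any depth were not given in the sources used here, so the depth is unknown. The peak signal is the authors' deposited value and served only to rank peaks within a list. Summits are the deposited start plus offset, in 1-based coordinates.

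Annotated start sites were those of Ensembl release 115, bases were read from RefSeq's Release 6 assembly, and no peak ran past a chromosome end. All 35 members and 13945 protein-coding genes on 6 chromosome arms were counted alike, on Python 3.11.15 with pandas 2.3.3. Counting was tested on simulated summits. All members are named, and sequences follow the 3 highest ranks of each class outside 2R, of which 1 is not reported here. The members, classes and lists were chosen with earlier results of these data known. The symbol dys was read as dysf, the bHLH-PAS gene, since it is also an older synonym of Dystrophin. Promoter GC, initiator letters and unshared summits were added after the data were seen. The alternatives were other windows, flanks, peak sets, member sets and each replicate set aside in turn. In the last, thresholded peaks were kept if also among the strongest of both other replicates. The thresholded list itself still drew on all replicates. Peak calls carry their sampling error, which peak lists do not give.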

Additional observations from a re-analysis of the deposited data

How the results depend on the processing

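No paired analysis was possible because the 3 replicates form 1 group. The promoter difference between tissue-specific and broadly expressed genes (-40.5 percentage points) kept its sign in the thresholded list in all alternatives run but one, the members of over 20 kb, where it was 8.33. It also turned, to 6.25, at 40% GC or more in replicates 2 and 3. It was -50.0 with a window of 250 bp and with the 17442 strongest pooled peaks, -26.2 with the 4360 stronger thresholded peaks, -57.8 without 7 members of mixed expression, and -35.7 to -28.6 without 1 replicate. In comparisons added after seeing the data it was -11.9 for summits at no other gene, -28.9 without head-to-head neighbours, -59.0 with 1 start site, -10 with more, -59.6 up to 5 kb, -50.0 from 5 to 20 kb, -12.7 under 40% GC and -20.8 at 40% or more. The share of bound members (40%) was 20% with the 4360 stronger peaks, 48.6% with pooled peaks, 28.6% at no other gene and 25.7 to 31.4% without 1 replicate, which leaves 6245 to 6540 peaks. The share of all genes was not counted on these smaller and larger peak sets.

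The share with a summit in the span plus flanks (88.6%) was 40% with no flank, 77.1% with 5 kb, 74.3% with the 4360 stronger peaks, 91.4% with pooled peaks and 77.1 to 80.0% without 1 replicate. Its class difference (-7.14 points) was -40.5, -26.2, -31.0 and -14.3 in the first 4 of these, -1.11 without mixed members and -21.4 to -9.52 without 1 replicate. The share of all genes with such a summit was not counted at these settings. The density difference (-1.11 per 10 kb) was -0.760, -0.685, -0.226 and -0.506 in the same 4, and -0.337 to -0.308 without 1 replicate. Within 50 and 200 bp, the E-box share was 35.2 and 90.4% (all peaks 33.5 and 84.5%), CGATA 18.8 and 37.5% (21.5 and 56.0%) and initiator letters 0 and 43.8% (7.75 and 31.2%). The cause of these shifts was not tested. With 21 and 14 genes per class, 1 gene moves a share by several points, and the length and GC ranges hold as few as 3 genes.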
